A study of Rattus norvegicus with 22 samples.

Results

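The 8 genes described here make, conjugate, move and sense bile acids in rat liver, and they were taken by symbol from a table of 14971 genes in 22 liver RNA libraries. Cyp7a1, Cyp8b1 and Cyp27a1 encode enzymes of bile acid synthesis, Baat encodes the enzyme that joins bile acids to taurine or glycine, Slc10a1 and Abcb11 encode the main transporters for uptake from blood and export into bile, and Nr1h4 and Nr0b2 encode the nuclear receptors FXR and SHP. All 8 were listed, and all 8 passed the minimum mean normalised count of 10 that 12424 of the 14971 genes met.

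The rats had hepatic vagotomy, in which the vagus nerve branch to the liver is cut, or sham surgery, and then breathed ozone or air. The 4 groups were HepV_O3 (vagotomy and ozone, 5 libraries), HepV_Air (vagotomy and air, 6 libraries), Sham_O3 (sham surgery and ozone, 6 libraries) and Sham_Air (sham surgery and air, 5 libraries). Per the labels, all rats were operated on at 12 weeks of age, had 5 to 6 days to recover, were exposed for 4 hours on 1 or 2 days, with ozone at 1.0 ppm, and were necropsied within 2 hours. The labels do not say that each library is a separate rat, so p-values measure the spread between these libraries, which may in part be technical. The labels give no strain or sex, and do not say which rats were exposed on 1 day and which on 2. No label or measurement in the table shows how complete the nerve cut was.

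Hepatocytes make bile acids from cholesterol. Cyp7a1 starts the main route, Cyp27a1 serves the alternative route and side-chain oxidation, and Cyp8b1 sets the share of cholic acid. Bile acids return from the gut through Slc10a1, are conjugated by Baat and leave through Abcb11, and when they accumulate they activate FXR, which induces Nr0b2 and Abcb11. The SHP protein represses Cyp7a1 and Cyp8b1.

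The libraries held 14098863 to 21141337 assigned reads, and each value below is a normalised read count, the reads of a gene divided by a size factor for its library, which ran from 0.819 to 1.31. Hepatocyte markers fitted the labelled tissue, with summed normalised counts of 1988851 to 2976133, against 152 to 272 for 7 listed cholangiocyte markers, in which Spp1 was at 0 in 1 library. Summed markers ran from 3149 to 7032 for Kupffer cells, from 2955 to 4621 for endothelial cells and from 2123 to 6279 for stellate cells. Of the 4 libraries with the least 5.8S ribosomal RNA (38.1 to 180 normalised counts, against 342 to 3775 in the other 18), 1 was HepV_O3, 2 were HepV_Air, 1 was Sham_O3 and none of the 4 was Sham_Air. Where leaving out these 4 libraries changed a call or a sign in a comparison of ozone with air, the value without them is given too.

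Of the 8 genes, Baat and Nr0b2 fell with ozone, and the 250 bases before the annotated start of each are shown for that reason. RefSeq, build GRCr8, gives them at chr5:68656138-68656387, minus strand, for Baat and at chr5:151062910-151063159, plus strand, for Nr0b2, both read 5′ to 3′ towards the gene. Capitals mark motif letters found.
Baat: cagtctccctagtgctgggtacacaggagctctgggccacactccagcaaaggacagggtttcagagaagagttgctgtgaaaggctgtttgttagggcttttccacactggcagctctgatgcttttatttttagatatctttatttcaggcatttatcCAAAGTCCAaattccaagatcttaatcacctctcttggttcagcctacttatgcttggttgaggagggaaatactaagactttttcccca
Nr0b2: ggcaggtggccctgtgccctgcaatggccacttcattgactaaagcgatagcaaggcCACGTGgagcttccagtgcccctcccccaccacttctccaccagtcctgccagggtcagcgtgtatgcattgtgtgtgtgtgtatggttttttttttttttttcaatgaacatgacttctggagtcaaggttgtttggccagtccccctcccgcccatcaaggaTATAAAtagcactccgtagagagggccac
The Baat window held the HNF4 letters CAAAGTCCA from position -90, which 0.338% of 33469 rat windows of this length held on either strand. The Nr0b2 window held the E-box CACGTG from position -193, found in 5.593% of windows, and the TATA box TATAAA from position -29, found in 12.931%. Neither window held the nuclear receptor half-site AGGTCA (14.064% of windows), the LRH-1 letters CAAGGTCA that contain it (1.327%), the FXR inverted repeat, AGGTCA facing its complement across 1 base (0.027%), or the glucocorticoid receptor half-site TGTTCT (17.524%). The 7 motifs were chosen with the sequences in view, positions count back from the start, and a match is only a match of letters. By symbol 5 of the 8 genes matched a window, and promoters of Cyp7a1, Abcb11 and Nr1h4 were not analysed here.

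Baat was more than 2-fold less abundant in ozone-exposed than in air-exposed liver, whether the hepatic vagus had been cut or not. The HepV_O3 libraries had 7582, 7532, 7334, 9931 and 8411 normalised counts, against a lowest value of 16384, a median of 17775 and a highest of 19904 in HepV_Air. The Sham_O3 libraries ran from 6669 over a median of 8912 to 11659, against 19824, 19320, 22920, 18763 and 18650 in Sham_Air. Every ozone library lay below every air library, with the gap falling between 11659 and 16384. In order of level the groups were HepV_O3, Sham_O3, HepV_Air and Sham_Air, and only the step from Sham_O3 to HepV_Air was free of overlap.

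The group means of Baat were 8158 ± 1074 in HepV_O3 and 17923 ± 1449 in HepV_Air (SD, n = 5 and 6), which put the ozone mean at 45.5% of the air mean after vagotomy. In sham rats they were 9141 ± 1848 in Sham_O3 and 19895 ± 1755 in Sham_Air (SD, n = 6 and 5), or 45.9%. On the log2(normalised count + 1) scale, on which all fold changes here are given, Baat fell by 1.14 ± 0.12 (SE) in vagotomised rats (limma, adjusted p = 6.18e-07) and by 1.14 ± 0.12 in sham rats (adjusted p = 3.6e-07). A complete separation of ozone below air was met by 5.21% of the 12424 genes after vagotomy, by 7.21% in sham rats and by 1.74% over all 11 ozone and 11 air libraries. By size of the fall, 153 genes fell further than Baat in vagotomised rats and 257 in sham rats. A called fall of at least 2-fold was met by 1.67% of genes in vagotomised rats and by 2.95% in sham rats.

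The fall of Baat kept its call with any 1 library left out. In the other alternatives, the fit without the 4 libraries low in 5.8S among them, it kept its call and ran from -1.22 to -1.13 in vagotomised rats and from -1.30 to -1.11 in sham rats. In bulk liver, fewer cells of a type and less RNA per cell cannot be told apart. Beside the fall of Baat, summed hepatocyte markers had medians of 2297079 in HepV_O3 and 2254524 in HepV_Air, and of 2434562 in Sham_O3 and 2376240 in Sham_Air. Alb, with a mean of 1556438 over all libraries, made up most of these sums. In vagotomised rats the hepatocyte marker Apoa1 rose by 0.37 ± 0.12 (adjusted p = 0.0362) and the marker Fgb fell by 0.47 ± 0.10 (adjusted p = 0.00172). In sham rats they had 0.27 ± 0.12 and -0.21 ± 0.10 (adjusted p = 0.113 and 0.121). Of the markers of other cells, the endothelial Lyve1 rose by 0.51 ± 0.14 in vagotomised rats (adjusted p = 0.0107), and in sham rats the stellate Dcn rose by 1.27 ± 0.35 (adjusted p = 0.00897) while the stellate Col3a1 fell by 0.80 ± 0.27 (adjusted p = 0.0271) and the Kupffer Cd68 fell by 0.64 ± 0.24 (adjusted p = 0.0491). In vagotomised rats 4 of the 5 endothelial markers tested were not called, and the median log2 fold change of the 5 was -0.0041. In sham rats 4 of 6 stellate markers (median -0.42) and 4 of 5 Kupffer markers (median -0.025) were not called. The calls of Apoa1 (adjusted p = 0.0567 without the 4 libraries low in 5.8S) and Col3a1 (adjusted p up to 0.081 with 1 library left out) were lost in some alternatives. The call of Cd68 was lost in 17 of 22 fits with 1 library left out (adjusted p up to 0.11). It was also lost in 8 of 15 other alternatives (adjusted p up to 0.138). The part of these cells in the changes of the 8 genes was not tested.

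**Figure D1:**
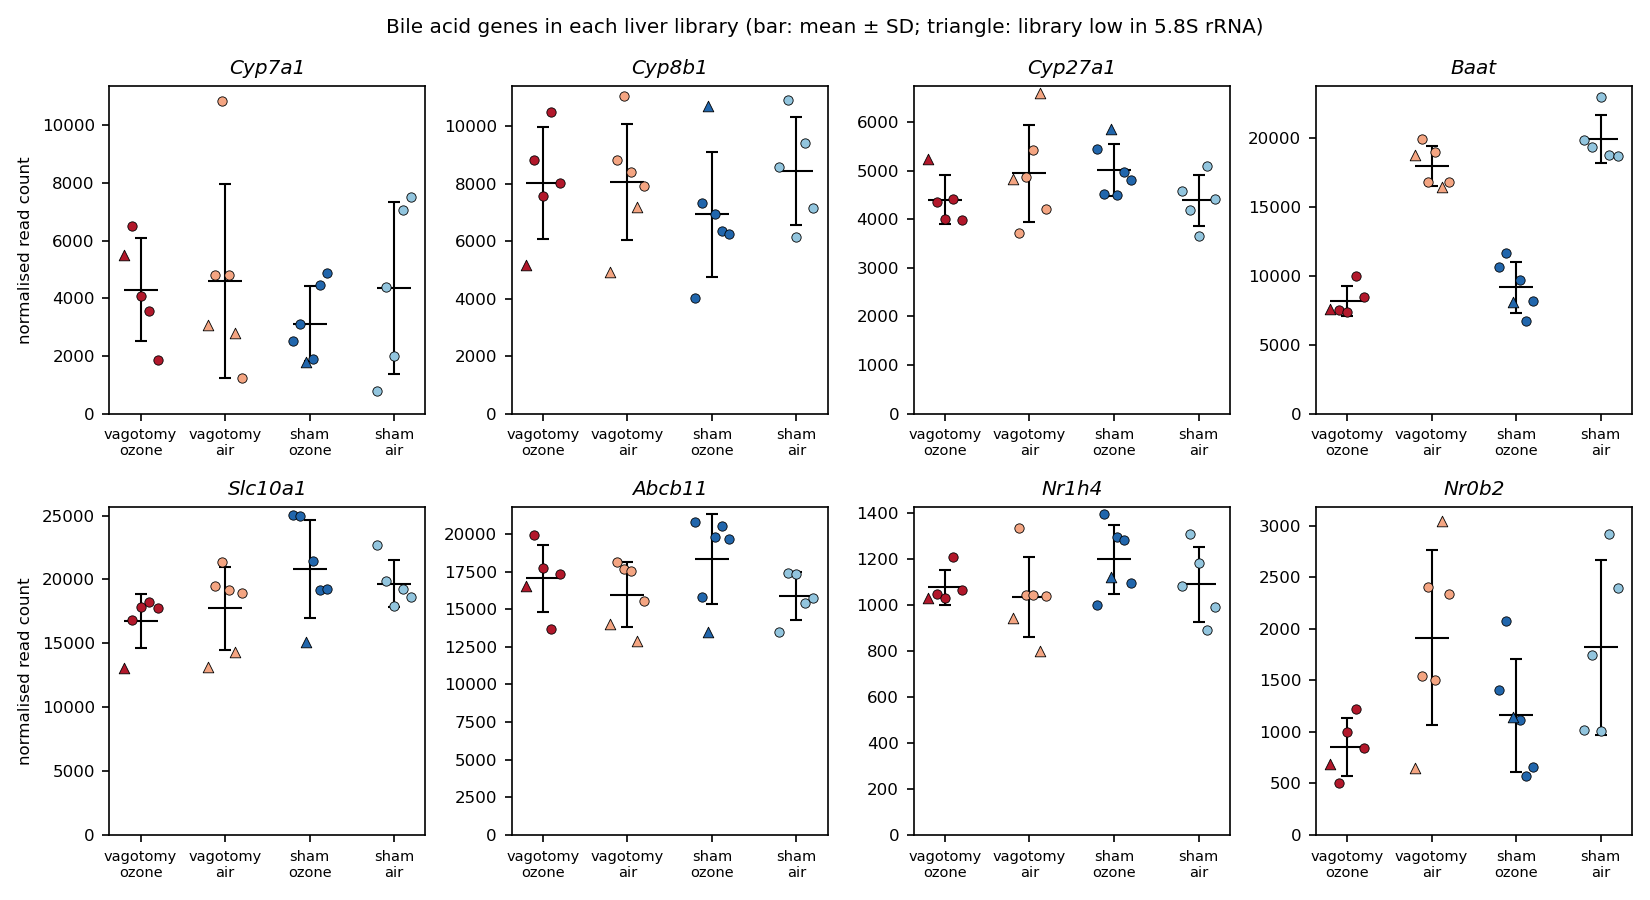
Normalised read count of each of the 8 genes (vertical axes, from 0) in every library of the HepV_O3, HepV_Air, Sham_O3 and Sham_Air groups, with the mean and SD as bars and the 4 libraries low in 5.8S as triangles. Baat separates ozone from air at 11659 against 16384, while the groups of the other 7 genes overlap in both surgeries.

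Nr0b2, the FXR target gene that encodes SHP, was lower in ozone-exposed liver, with a wide spread among libraries. The HepV_O3 libraries had 691, 500, 1002, 1226 and 844 normalised counts, against a lowest value of 649, a median of 1942 and a highest of 3048 in HepV_Air. The Sham_O3 libraries ran from 577 over a median of 1127 to 2072, against 1018, 1749, 1009, 2922 and 2394 in Sham_Air. The groups overlapped in both surgeries, and the lowest HepV_Air library, at 649, was a library low in 5.8S, as was the highest.

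The mean of Nr0b2 was 853 ± 279 in HepV_O3 and 1915 ± 851 in HepV_Air (SD, n = 5 and 6), or 44.5%, and the gene fell by 1.08 ± 0.37 (limma, adjusted p = 0.0407). In sham rats the means were 1161 ± 546 in Sham_O3 and 1819 ± 844 in Sham_Air (SD, n = 6 and 5), or 63.8%, with a log2 fold change of -0.65 ± 0.37 that did not pass (adjusted p = 0.204). Without the 4 libraries low in 5.8S the change in vagotomised rats was -1.16 ± 0.38 (adjusted p = 0.0318). Averaged over both surgeries, Nr0b2 fell by 0.86 ± 0.26 (adjusted p = 0.0114). The call in vagotomised rats was lost when any 1 of 9 libraries was left out (HepV_O3 1, 2, 3 and 5, and HepV_Air 2 to 6, adjusted p = 0.0514 to 0.121), whereas the averaged call held under each library left out (adjusted p = 0.00161 to 0.0274). The difference between the surgeries in the ozone change of Nr0b2 was -0.43 ± 0.52 (adjusted p = 0.864), with a 95% confidence interval from -1.51 to 0.66.

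Baat and Nr0b2 were the 2 of the 8 genes that passed in vagotomised rats, where 21.1% of all genes did (9.63% falling). Baat alone passed in sham rats, where 28.4% of all genes did (13.8% falling). Without the 4 libraries low in 5.8S, 3 of the 8 passed in sham rats, with Cyp8b1 and Abcb11 added, against 4452 of the 12424 genes. Only 1 of those 4 was a sham library, and with any 1 library left out Baat alone passed in sham rats. Both Baat and Nr0b2 passed in the average over surgeries, where 39.1% did (18.9% falling). The median log2 fold change of the 8 genes was -0.037 in vagotomised and -0.051 in sham rats, against -0.0084 and 0.0081 over all genes tested. The vagotomy and sham ozone comparisons share no library, but both take their SE from 1 fit over all 22 libraries.

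Cyp7a1, the rate-limiting enzyme of bile acid synthesis, varied more between libraries of the same group than between groups. It had 5504, 6511, 4062, 3565 and 1855 normalised counts in HepV_O3, against a range of 1237 to 10855 with a median of 3936 in HepV_Air. In sham rats it ran from 1803 to 4890 with a median of 2811 in Sham_O3, against 783, 4387, 1979, 7069 and 7515 in Sham_Air. All 4 groups overlapped, and the span from 783 to 10855 over the 22 libraries was a factor of 13.9.

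The ozone change of Cyp7a1 was 0.085 ± 0.52 (adjusted p = 0.933) in vagotomised rats and -0.17 ± 0.52 (adjusted p = 0.841) in sham rats. The 95% intervals ran from -0.99 to 1.16 and from -1.24 to 0.91. They do not exclude a rise of more than 2-fold in vagotomised rats or a fall of more than 2-fold in sham rats. The value in vagotomised rats was -0.21 without the 4 libraries low in 5.8S. The residual SD of Cyp7a1 around its group means was 0.97 log2 units, and only 1.43% of the 12424 genes had a larger one. For Nr0b2 it was 0.69 (3.89% larger) and for Cyp8b1 0.39, whereas the median gene had 0.28 and the other 5 genes had 0.19 to 0.23. The fewest reads behind any value were 878 for Cyp7a1 and 521 for Nr0b2.

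Cyp8b1, which directs synthesis towards cholic acid, averaged 8021 ± 1947 in HepV_O3 and 8060 ± 2015 in HepV_Air, and 6934 ± 2180 in Sham_O3 and 8450 ± 1873 in Sham_Air (SD, n = 5, 6, 6 and 5). Its ozone changes were -0.0036 ± 0.22 (adjusted p = 0.993) in vagotomised and -0.32 ± 0.22 (adjusted p = 0.299) in sham rats. The Sham_O3 libraries had 4021 to 7317 normalised counts except the library low in 5.8S, at 10717. Without the 4 libraries low in 5.8S, Cyp8b1 fell by 0.45 ± 0.16 in sham rats (adjusted p = 0.0335). Only 1 of those 4 was a sham library. With any 1 library left out, that one included, Cyp8b1 did not pass in sham rats (adjusted p = 0.105 to 0.587).

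Cyp27a1, the mitochondrial sterol hydroxylase, averaged 4405 ± 511 in HepV_O3 and 4946 ± 1002 in HepV_Air, and 5020 ± 539 in Sham_O3 and 4392 ± 523 in Sham_Air. Its ozone changes were -0.15 ± 0.12 (adjusted p = 0.431) in vagotomised and 0.19 ± 0.12 (adjusted p = 0.25) in sham rats. The difference between them, -0.34 ± 0.17, was the nearest of the 8 genes to the threshold, with an unadjusted p of 0.0575 and an adjusted p of 0.558.

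Slc10a1, the sodium-dependent bile acid uptake carrier, had 13079, 16853, 17827, 18241 and 17759 normalised counts in HepV_O3, against 13163 to 21362 in HepV_Air with a median of 19024. In sham rats it ran from 15097 over a median of 20317 to 25029 in Sham_O3, against 22661, 19887, 17901, 19214 and 18593 in Sham_Air. The 4 libraries low in 5.8S had the 4 lowest Slc10a1 values of all, 13079 to 15097, against 16853 to 25029 in the other 18. The ozone changes were -0.071 ± 0.14 (adjusted p = 0.772) in vagotomised and 0.066 ± 0.14 (adjusted p = 0.758) in sham rats. Without those 4 libraries they were -0.16 ± 0.10 (adjusted p = 0.294) in vagotomised and 0.15 ± 0.090 (adjusted p = 0.195) in sham rats.

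Abcb11, the canalicular bile salt export pump, averaged 17039 ± 2247 in HepV_O3 and 15958 ± 2164 in HepV_Air, and 18350 ± 2982 in Sham_O3 and 15884 ± 1619 in Sham_Air. Its changes were 0.096 ± 0.12 (adjusted p = 0.648) in vagotomised and 0.20 ± 0.12 (adjusted p = 0.256) in sham rats. In Sham_O3, 4 of the 6 libraries exceeded all 5 Sham_Air libraries, and the lowest, at 13513, was the one low in 5.8S. Without the 4 libraries low in 5.8S, Abcb11 rose by 0.28 ± 0.10 in sham rats (adjusted p = 0.0402) and had a log2 fold change of -0.014 in vagotomised rats. With any 1 library left out, Abcb11 did not pass in sham rats (adjusted p = 0.0733 to 0.455).

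Nr1h4, the bile acid receptor FXR, averaged 1077 ± 75.7 in HepV_O3 and 1034 ± 175 in HepV_Air, and 1199 ± 149 in Sham_O3 and 1091 ± 162 in Sham_Air. Its changes were 0.073 ± 0.12 (adjusted p = 0.718) in vagotomised and 0.14 ± 0.12 (adjusted p = 0.402) in sham rats. The intervals, from -0.17 to 0.32 and from -0.10 to 0.38, do not reach a doubling or a halving. The value in vagotomised rats was -0.030 without the 4 libraries low in 5.8S. The receptor transcript did not pass the test in either surgery, while its target Nr0b2 fell in vagotomised rats and in the average.

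**Figure D2:**
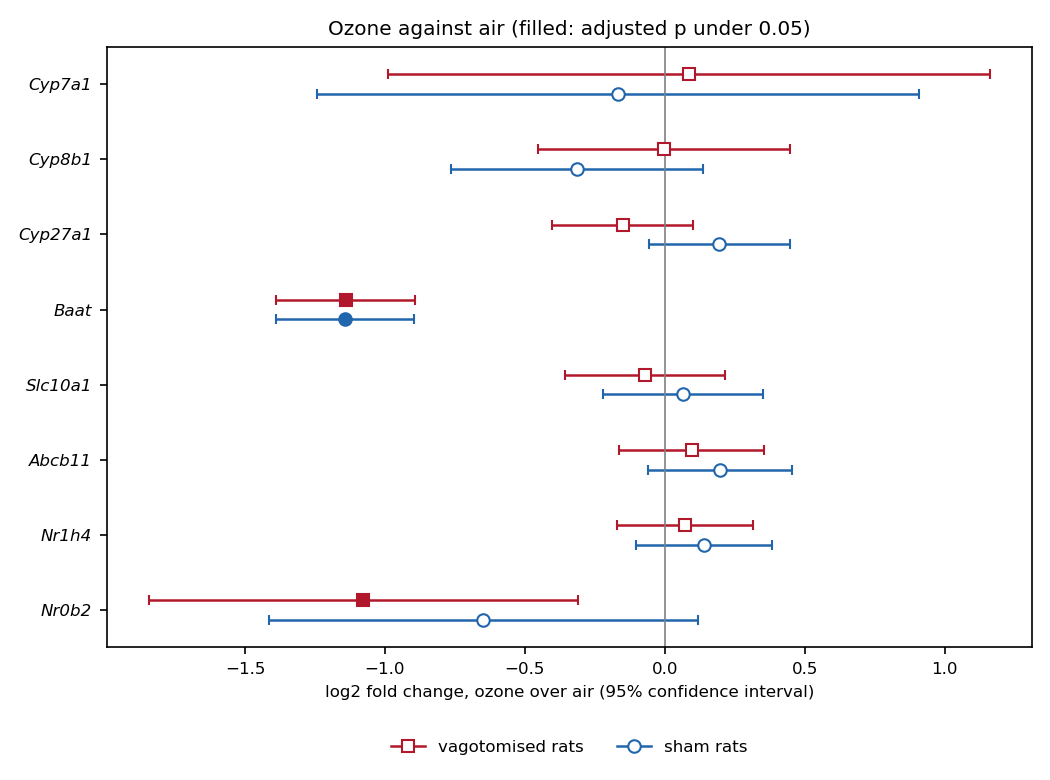
Log2 fold change of ozone over air for the 8 genes with 95% confidence intervals (horizontal axis), squares for vagotomised and circles for sham rats, filled where the adjusted p was under 0.05. The Baat estimates lie together at -1.14, Nr0b2 is filled only in vagotomised rats, at -1.08, though its difference between surgeries did not pass, and the Cyp7a1 intervals are the widest.

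For vagotomy itself, none of the 8 genes passed with limma in ozone, where 1.34% of the 12424 genes did, or in air, where 0% did, or in the average over exposures, where 0.113% did. Neither edgeR nor DESeq2 called any of the 8. At an unadjusted p under 0.05 there was 1 in ozone and 1 in the average, both times Slc10a1, and 0 in air. Over all genes, 1862 in ozone, 387 in air and 1150 in the average had an unadjusted p under 0.05.

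Slc10a1 averaged 16752 ± 2115 in HepV_O3 and 20808 ± 3826 in Sham_O3 (SD, n = 5 and 6), a log2 fold change of -0.30 ± 0.14 (unadjusted p = 0.0398, adjusted p = 0.305). In air it averaged 17731 ± 3221 in HepV_Air and 19651 ± 1836 in Sham_Air, with -0.16 ± 0.14 (adjusted p = 1). The average over exposures was -0.23 ± 0.10 (unadjusted p = 0.0258, adjusted p = 0.458). Without the 4 libraries low in 5.8S the values were -0.30 ± 0.10 in ozone (adjusted p = 0.0907) and 0.0081 ± 0.096 in air (adjusted p = 0.995).

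The vagotomy change of Baat was -0.15 ± 0.12 in ozone (adjusted p = 0.616) and -0.15 ± 0.12 in air (adjusted p = 1), and neither passed. The vagotomy changes of the 8 genes ran from -0.38 to 0.45 in ozone and from -0.16 to 0.20 in air, with Cyp7a1 the highest each time and its intervals spanning -0.63 to 1.53 and -0.88 to 1.27.

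The ozone change of Baat in vagotomised rats minus that in sham rats was 0.0019 ± 0.17 (adjusted p = 0.998), with an interval from -0.35 to 0.35. A difference of more than 0.35 log2 units in either direction lies outside that interval, against a fall of 1.14 in each surgery. For the 8 genes these differences ran from -0.43 for Nr0b2 to 0.31 for Cyp8b1, and none passed with limma, edgeR or DESeq2, nor at an unadjusted p under 0.05. Over all genes 0% passed with limma, 1147 had an unadjusted p under 0.05, edgeR called 0 and DESeq2 called 20.

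**Figure D3:**
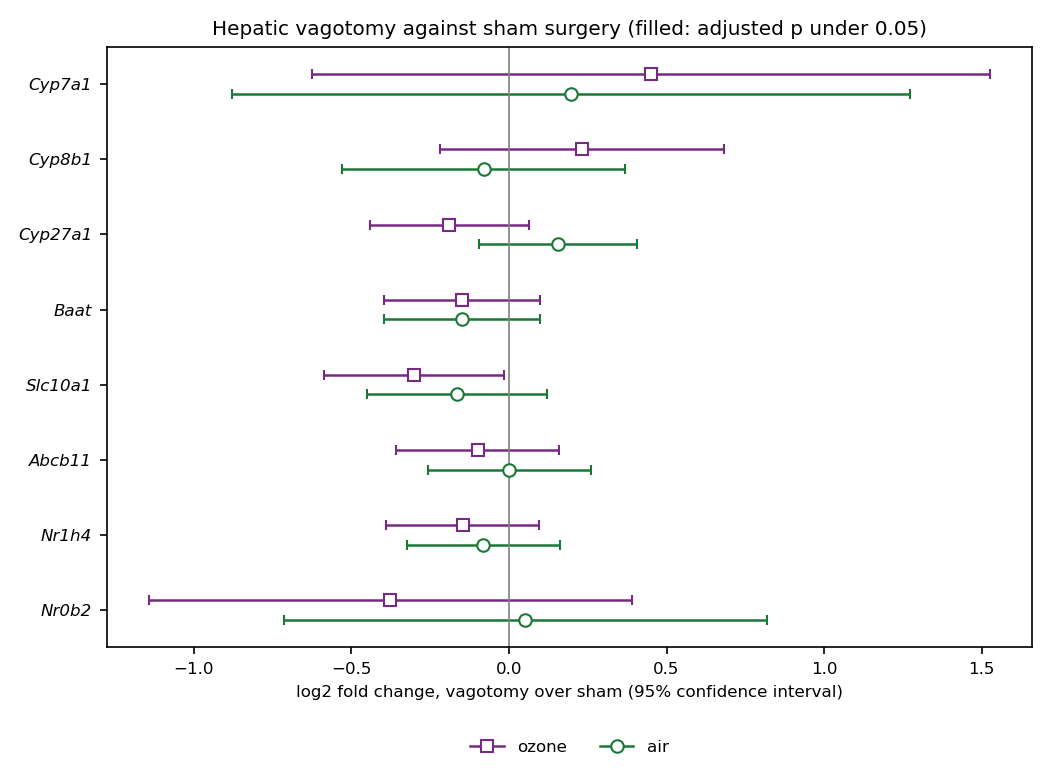
Log2 fold change of vagotomy over sham surgery for the 8 genes with 95% confidence intervals (horizontal axis), squares for ozone and circles for air. No symbol is filled, since none of the 8 had an adjusted p under 0.05, and the Slc10a1 interval in ozone is the one that leaves out 0.

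Around these genes, 49 others of the pathway passed the minimum mean, in lists of synthesis, transport, regulation and detoxification. Of the 12 other genes of synthesis and activation, 2 rose and 1 fell in vagotomised rats, and 2 rose and 3 fell in sham rats. The shares of all genes were 11.4% rising and 9.63% falling after vagotomy and 14.6% rising and 13.8% falling in sham rats. The median log2 fold change of the list was -0.0085 in vagotomised and 0.15 in sham rats.

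Amacr, the racemase that prepares the bile acid side chain for peroxisomal shortening, averaged 4398 ± 1518 in HepV_O3 and 8571 ± 1823 in HepV_Air, and 4351 ± 995 in Sham_O3 and 9111 ± 1706 in Sham_Air. It fell by 1.00 ± 0.20 (adjusted p = 0.00101) in vagotomised and by 1.08 ± 0.20 (adjusted p = 0.000358) in sham rats, close in size to the fall of Baat. Acot8, a peroxisomal acyl-CoA thioesterase, rose by 0.48 ± 0.12 in vagotomised rats (adjusted p = 0.00499) and by 0.52 ± 0.12 in sham rats (adjusted p = 0.00181). Abcd3, a peroxisomal membrane transporter for bile acid intermediates, rose by 0.57 ± 0.14 in vagotomised rats (adjusted p = 0.00522) and by 0.57 ± 0.14 in sham rats (adjusted p = 0.00397).

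Cyp7b1, the oxysterol hydroxylase of the alternative route, averaged 36.3 ± 12.8 in Sham_O3 and 62.3 ± 21.5 in Sham_Air and fell by 0.77 ± 0.24 (adjusted p = 0.0173), a call lost without Sham_Air 2 (adjusted p = 0.0703). In vagotomised rats it had -0.019 ± 0.24 (adjusted p = 0.968), and the difference between the surgeries, 0.75 ± 0.34, did not pass (adjusted p = 0.517). Slc27a5, the bile acid CoA ligase that acts just before Baat, had a change of -0.27 ± 0.11 (adjusted p = 0.0865) in vagotomised rats and of 0.16 ± 0.11 (adjusted p = 0.302) in sham rats. Its difference between the surgeries, -0.43 ± 0.16, did not pass (adjusted p = 0.417).

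Of 13 transporters other than Slc10a1 and Abcb11, 3 fell in vagotomised rats and 2 in sham rats, and the others did not pass, against 9.63% and 13.8% of all genes falling. In the average over surgeries 7 fell and 1 rose, against 18.9% of all genes falling and 2512 of the 12424 rising. The gene that rose, Tmem30a, named after its values were seen, encodes a flippase subunit and rose by 0.26 ± 0.086 (adjusted p = 0.0169), a call lost with equal column totals (adjusted p = 0.055) and equal upper quartiles (adjusted p = 0.058). The medians of the list were -0.27 in vagotomised and -0.15 in sham rats. Slco1b2, a sodium-independent uptake carrier of hepatocytes, averaged 14784 ± 1740 in HepV_O3 and 21054 ± 3665 in HepV_Air and fell by 0.50 ± 0.14 (adjusted p = 0.0113). In sham rats it averaged 15070 ± 2857 in Sham_O3 and 19703 ± 2397 in Sham_Air and fell by 0.40 ± 0.14 (adjusted p = 0.0311), a call lost without any 1 of Sham_O3 3 and 6 and Sham_Air 2 and 4 (adjusted p = 0.0585 to 0.0979).

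Abcc2, the canalicular pump for conjugated anions, averaged 10415 ± 2110 in HepV_O3 and 16461 ± 1433 in HepV_Air and fell by 0.68 ± 0.16 (adjusted p = 0.00355). In sham rats it had -0.15 ± 0.16 (adjusted p = 0.528), and the difference of -0.53 ± 0.22 did not pass (adjusted p = 0.493). Atp8b1, the flippase that maintains the canalicular membrane, averaged 458 ± 52.2 in HepV_O3 and 666 ± 97.0 in HepV_Air and fell by 0.54 ± 0.14 (adjusted p = 0.00739). In sham rats it had -0.33 ± 0.14 (adjusted p = 0.077), which passed under 3 other scalings (adjusted p = 0.0189 to 0.023), and the difference of -0.20 ± 0.20 did not pass (adjusted p = 0.809). Abcb1a, a multidrug export pump, had -0.27 ± 0.12 (adjusted p = 0.11) in vagotomised rats, a fall that passed without the 4 libraries low in 5.8S, at -0.37 ± 0.11 (adjusted p = 0.0172), and -0.12 ± 0.12 (adjusted p = 0.473) in sham rats.

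In sham rats Slc10a5, a carrier of the Slc10a1 family, fell by 0.79 ± 0.26 from low counts, 25.4 ± 7.88 in Sham_O3 and 43.7 ± 10.2 in Sham_Air (adjusted p = 0.0282). That call was lost without any 1 of 5 libraries, Sham_O3 1 and 5 and Sham_Air 2, 3 and 5 (adjusted p = 0.0547 to 0.082). In vagotomised rats it had -0.59 ± 0.26 (adjusted p = 0.124), and averaged over both surgeries it fell by 0.69 ± 0.19 (adjusted p = 0.00523). The uptake carrier Slco2b1 had -0.17 ± 0.088 (adjusted p = 0.185) in vagotomised rats and -0.23 ± 0.088 (adjusted p = 0.0527) in sham rats. In sham rats it passed in 8 of 15 alternatives other than leaving out 1 library (adjusted p = 0.00454 to 0.0487 in the 8, and up to 0.109 in the 15). Averaged over both surgeries it fell by 0.20 ± 0.062 (adjusted p = 0.0129). The basolateral pump Abcc4 had -0.27 ± 0.17 (adjusted p = 0.301) in vagotomised and -0.42 ± 0.17 (adjusted p = 0.0736) in sham rats.

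Among 20 regulators of bile acid genes, 3 rose and 3 fell in vagotomised rats and 8 rose and 3 fell in sham rats. Of all genes, 11.4% rose and 9.63% fell in vagotomised rats, and 14.6% rose and 13.8% fell in sham rats. The medians of the list were 0.039 and 0.53, against -0.0084 and 0.0081 over all genes. Nr1i2, the xenobiotic and bile acid receptor PXR, averaged 3133 ± 376 in HepV_O3 and 1602 ± 344 in HepV_Air, and 2955 ± 205 in Sham_O3 and 1343 ± 197 in Sham_Air. It rose by 0.99 ± 0.13 in vagotomised rats (adjusted p = 1.07e-05) and by 1.15 ± 0.13 in sham rats (adjusted p = 9.82e-07).

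Ppargc1a, a fasting-induced coactivator of nuclear receptors, averaged 368 ± 192 in HepV_O3 and 120 ± 37.6 in HepV_Air, and 632 ± 146 in Sham_O3 and 97.0 ± 28.4 in Sham_Air. It rose by 1.48 ± 0.32 in vagotomised rats (adjusted p = 0.00185) and by 2.71 ± 0.32 in sham rats (adjusted p = 1.59e-06). The difference of -1.23 ± 0.45 between the surgeries did not pass (adjusted p = 0.421). Hnf4a, a nuclear receptor that drives hepatocyte genes, had 0.25 ± 0.11 in vagotomised rats (adjusted p = 0.123, and 0.0457 or 0.0342 without HepV_O3 4 or 5) and rose by 0.69 ± 0.11 in sham rats (adjusted p = 6.56e-05), and the difference of -0.44 ± 0.16 did not pass (adjusted p = 0.398). Fgfr4, the hepatic receptor for the gut hormone that represses Cyp7a1, fell by 0.64 ± 0.12 in vagotomised rats (adjusted p = 0.000535) and by 0.36 ± 0.12 in sham rats (adjusted p = 0.0275), where the call was lost without any 1 of Sham_O3 2, 5 and 6 and Sham_Air 3 and 4 (adjusted p = 0.0509 to 0.0669).

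Detoxification genes of the Cyp3a family, whose products hydroxylate bile acids, did not move together, and their similar sequences make the split of reads between copies uncertain. Cyp3a9 had 0.37 ± 0.13 in vagotomised rats (adjusted p = 0.0527) and rose by 0.76 ± 0.13 in sham rats (adjusted p = 0.00018). In vagotomised rats it passed in 4 of 22 fits with 1 library left out (adjusted p down to 0.026). It also passed there in 4 of 15 other alternatives (adjusted p down to 0.0415). The difference of -0.39 ± 0.19 between the surgeries did not pass (adjusted p = 0.541). Cyp3a2 averaged 4694 ± 2136 in HepV_O3 and 7800 ± 2185 in HepV_Air and fell by 0.83 ± 0.25 (adjusted p = 0.0185), a call lost without HepV_O3 5 (adjusted p = 0.0631). In sham rats Cyp3a2 had -0.42 ± 0.25 (adjusted p = 0.223), and the difference of -0.41 ± 0.35 did not pass (adjusted p = 0.774). Cyp3a23/3a1 had -0.088 ± 0.25 and 0.19 ± 0.25 (adjusted p = 0.85 and 0.611), and Papss2, which makes the sulphate donor, had 0.39 ± 0.16 and 0.31 ± 0.16 (adjusted p = 0.088 and 0.16), in vagotomised and sham rats in turn. In sham rats Papss2 rose by 0.39 ± 0.13 without the 4 libraries low in 5.8S (adjusted p = 0.0288). With 1 library left out it passed there only without Sham_Air 2 (adjusted p = 0.0375). These were the 4 detoxification genes listed by symbol.

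**Figure D4:**
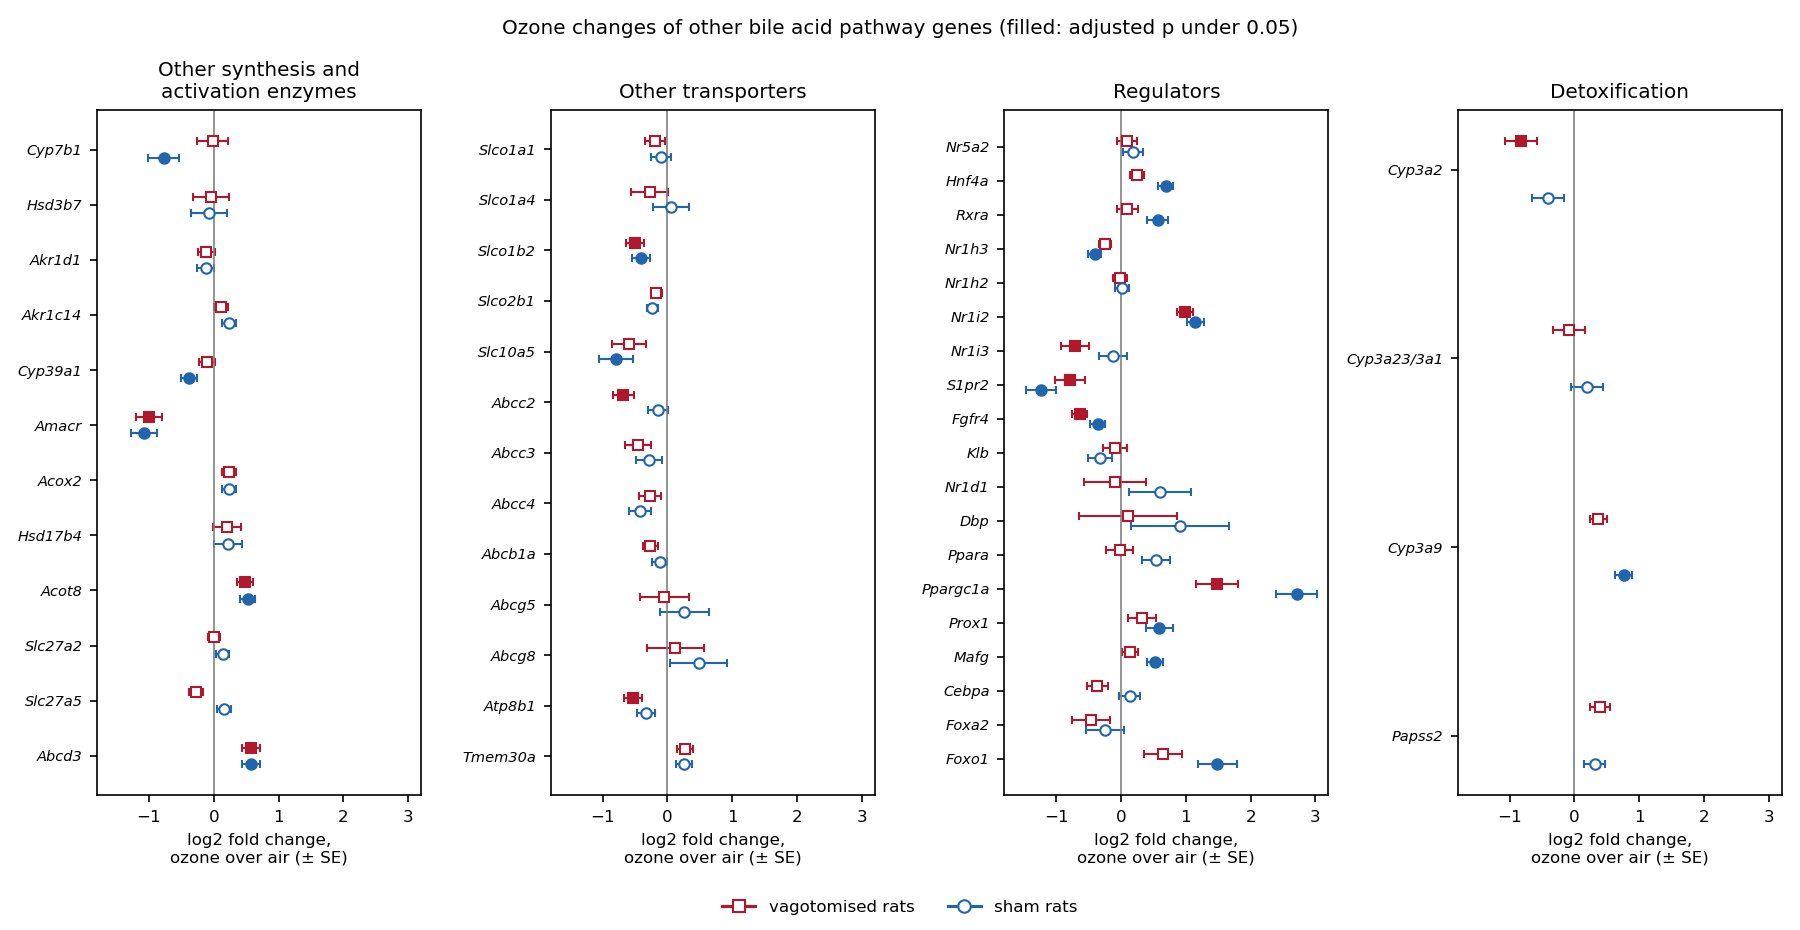
Log2 fold change of ozone over air with SE (horizontal axes) for 48 of the 49 other bile acid pathway genes, squares for vagotomised and circles for sham rats, filled where the adjusted p was under 0.05. Ppargc1a lies farthest to the right at 2.71 in sham rats, and Amacr lies at -1.08 in sham rats.

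With vagotomy as the comparison, 1 of the 49 genes passed in ozone, where 7 had an unadjusted p under 0.05. Over all genes 1.34% passed in ozone, and 1862 of the 12424 had an unadjusted p under 0.05. Hnf4a averaged 11420 ± 2431 in HepV_O3 and 16449 ± 1799 in Sham_O3 and fell by 0.55 ± 0.11 (adjusted p = 0.0199). The call was lost without any 1 of HepV_O3 4 and 5 and Sham_O3 1 and 2 (adjusted p = 0.0548 to 0.071). Slc27a5 had -0.40 ± 0.11 (adjusted p = 0.0715), Atp8b1 had -0.43 ± 0.14 (adjusted p = 0.123) and Abcc2 had -0.47 ± 0.16 (adjusted p = 0.147) in ozone.

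Pairs of the 8 genes were also compared library by library within groups, as deviations from the group means over 22 libraries, in 6 pairs. None of the 6 passed, with adjusted p = 0.437 to 0.664 for Pearson's r. Baat and Slc10a1 had r = 0.427 (permutation p = 0.089, adjusted 0.437) and rho = 0.528 (permutation p = 0.025, adjusted 0.15), and r = 0.489 without the 2 libraries farthest from the median of Baat. Nr0b2 and Cyp7a1, repressor and target, had r = 0.133 (permutation p = 0.602, adjusted 0.664), rho = 0.112 (permutation p = 0.653, adjusted 0.653) and r = 0.0839 without 2 libraries.

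Among 9648 genes with a mean of at least 50, the 3 whose profiles over the 22 libraries were most like that of Baat included Glyatl1 (r = 0.955) and Cers6 (r = 0.950). Glyatl1 encodes a glycine N-acyltransferase-like protein. The nearest to Nr0b2 was Amy1a (r = 0.846), to Cyp7a1 A2m (r = 0.731), to Cyp8b1 Snai2 (r = 0.724), to Cyp27a1 Man2b1 (r = 0.833), to Slc10a1 Mreg (r = 0.917), to Abcb11 Dicer1 (r = 0.933) and to Nr1h4 Swsap1 (r = 0.708). These are descriptions over libraries that share the ozone and air groups and their scaling.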

How the data were processed

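Rat liver RNA was sequenced in 22 libraries. The deposited values are a signal, a normalised read count per gene and library, and per the submitters' processing notes STAR, Partek, DESeq and DESeq2 were used with rat build rn6, versions not given in the sources used here. Division by 1 step per library gave whole reads for 100% of values, within 0.001 of a whole number, and these reads, 14098863 to 21141337 a library, were used for the count tests. Errors are the spread between libraries.

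The main test was limma 3.58.1 (R 4.3.3) on log2(normalised count + 1) for the 12424 genes with a mean of at least 10, with 4 group means over all 22 libraries, a mean-variance trend, two-sided tests and Benjamini-Hochberg adjustment over all of these genes, called at an adjusted p under 0.05. It was tested on simulated data. Correlations used 100000 permutations within groups, two-sided. Alternatives were other pseudocounts, filters and scalings, edgeR 4.0.16, DESeq2 1.42.0, a replicate block, a covariate for 5.8S, and leaving out libraries.

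Replicate numbers were taken to count libraries within a group, and the main fit has no block for them. Of 31 same-numbered pairs, 10 had a correlation over 0.1, and the values ran from -0.49 to 0.61. These values cannot settle whether the numbers mark pairs, and a fit with a replicate block was among the alternatives. The 8 genes, the lists and the naming rule were chosen with earlier results of these data known. Named were the 8 genes, up to 4 genes of each list with the smallest p in an ozone comparison and up to 2 in a vagotomy comparison, and the nearest profiles. Genes not listed by the symbol used are not analysed here, and some genes that the rule names are not reported here. Exposure on 1 or 2 days could not be modelled.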

Additional observations from a re-analysis of the deposited data

Results flagged for a closer look

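A sample far from the others of its group was seen in 4 of 32 combinations of gene and group, and chance alone gives such a sample in about 1 in 20 groups. Cyp7a1 was highest in HepV_Air 3, at 10855 normalised counts. Baat was highest in Sham_Air 3, at 22920, on the far side from the ozone libraries. Slc10a1 was lowest in HepV_O3 1, at 13079, a library low in 5.8S. Nr1h4 was highest in HepV_O3 4, at 1210. The causes were not tested.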

How the results depend on the processing

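Of 3952 alternative values for 113 results, 3737 kept their direction and side of the threshold or, for counts, stayed within 1.5 times. The calls of Baat held in each ozone alternative. The number of the 8 genes called in vagotomised rats fell to 1 under the replicate block (Nr0b2, adjusted p = 0.0542) and under robust empirical Bayes (adjusted p = 0.0517), and was 1 to 2 with a library left out. In sham rats it was 3 without the 4 libraries low in 5.8S, where 4452 of the 12424 genes were called, and 1 with any 1 library left out.

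The replicate block also gave 4 genes for vagotomy averaged over exposures, against 14, and a Baat difference between surgeries of -0.045. Of the 22 libraries, 2 correlated best with a library of their own number. For vagotomy averaged, the count was 37 with no minimum, 3 with a minimum mean of 50, 36 with edgeR under either scaling, 114 with DESeq2, 25 without the 4 libraries and 11 to 35 with a library left out. For vagotomy in ozone, against 166, it was 86 under quantile normalisation, 14 with only the groups compared, 366.0 with DESeq2, 272 without the 4 libraries, 322 with the 5.8S covariate and 19 to 217 with a library left out. For the difference of ozone changes it was 20 with DESeq2 and 0 to 1 with a library left out. Hnf4a in ozone was lost under quantile normalisation (adjusted p = 0.0525) and with only the groups compared (adjusted p = 0.145), and Cyp3a2 in vagotomised rats with only the groups compared (adjusted p = 0.0717).

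Signs turned only for values that had not passed. In sham rats, Slc10a1 was -0.037 with equal column totals, -0.024 with equal upper quartiles and -0.18 with quantile normalisation, which put Abcb11 at -0.015, Slc27a5 at -0.031 and, in vagotomised rats, Cyp7b1 at 0.043. In vagotomised rats Cyp7a1 was -0.11 with edgeR and TMM, -0.10 with edgeR and the submitters' size factors, -0.10 with DESeq2 and -0.21 without the 4 libraries, and Abcb11 was -0.014 and Nr1h4 -0.030 without them. Slc10a1 for vagotomy in air was 0.0081 and the correlation of Nr1h4 and Abcb11 -0.124 without them. The Baat difference was -0.017 and -0.014 with edgeR, -0.013 with DESeq2, -0.019 without the 4 libraries and -0.030 with the 5.8S covariate. With a library left out, Cyp7a1 ran from -0.23 to 0.39 in vagotomised and from -0.68 to 0.13 in sham rats and from -0.32 to 0.51 for vagotomy in air. In vagotomised rats Cyp8b1 ran from -0.14 to 0.15, Cyp7b1 from -0.098 to 0.12, Slc10a1 from -0.15 to 0.016 and Cyp3a23/3a1 from -0.27 to 0.13, and the Baat difference from -0.084 to 0.077. The causes were not tested. Fitting only the groups compared has no counterpart for averages and differences.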
